A study of Mus musculus with 4 samples.

Results

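The PAR bZIP genes *Hlf*, *Dbp* and *Tef*, and *Nfil3*, whose product competes with theirs for DNA, were followed in LSK cells with and without Meis1. The members were taken as all non-control probes whose gene name on the array was one of these 4 symbols, which gave 8 of 41174 probes and 4 of 21344 named genes. *Hlf* was selected on these arrays, by its lower signal in Meis1-deficient cells, and its values are therefore given as a description without a test. The other 3 genes were taken for their relation to *Hlf*. Probes entered the test if 1 genotype or both had them well above background on each of its arrays, a mark that the scanner software gives to every spot. This left 5 of the 8 member probes, with all 4 genes among them, and 22007 probes in total.

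LSK cells are bone marrow cells without lineage markers that carry Sca-1 and c-Kit, a fraction that includes hematopoietic stem cells and early progenitors. Meis1-deficient cells (Meis1-KO, 2 arrays) came from Mx1-Cre positive Meis1 fl/fl mice and control cells (Meis1-WT, 2 arrays) from Cre-negative Meis1 fl/fl mice, all on the C57BL/6J background and 4 to 8 weeks old at injection. Each array held the RNA of 1 pool of 6 mice, sorted 1 week after poly(I:C), which was given 4 times at 1.5 ug/g to switch on the interferon-responsive Mx1 promoter. Mx1-Cre is not limited to blood cells. The sources differ on whether the controls also received poly(I:C) or a sham injection, and if they were sham-treated, injection and genotype cannot be told apart. Slide 1 carried replicate 1 of each genotype, and slide 2 carried replicate 2 of each.

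The PAR bZIP factors share a basic leucine zipper and a domain rich in proline and acidic residues, and they activate genes through D-box sites as dimers. Nfil3 binds the same sites and represses. *Dbp*, *Tef* and *Hlf* are known as outputs of the circadian clock in liver, where Clock and Arntl act on *Dbp* through E-boxes. *Hlf* is also known as a gene of hematopoietic stem cells and as the partner of TCF3 in a fusion of acute lymphoblastic leukemia, while *Nfil3* is known for its part in the development of NK and innate lymphoid cells.

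The 250 bases upstream of each member's annotated start are shown because the clock and Meis1 both act through short sites near promoters (RefSeq, GRCm38.p6, 5′ to 3′ along the gene). Capitals mark matches, on either strand, to 5 motifs: the D-box variants TTATGTAA and TTACGTAA, the E-box CACGTG, the cAMP response element TGACGTCA, and the Meis site TGACAG. *Tef* has windows at each of its 2 starts.
Hlf (chr11:90390918-90391167, minus strand): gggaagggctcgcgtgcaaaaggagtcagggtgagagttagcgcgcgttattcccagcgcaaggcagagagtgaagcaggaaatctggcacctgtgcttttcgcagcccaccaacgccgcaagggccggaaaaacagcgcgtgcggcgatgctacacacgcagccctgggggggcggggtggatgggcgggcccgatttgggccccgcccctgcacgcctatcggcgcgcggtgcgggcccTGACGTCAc
Dbp (chr7:45704997-45705246, plus strand): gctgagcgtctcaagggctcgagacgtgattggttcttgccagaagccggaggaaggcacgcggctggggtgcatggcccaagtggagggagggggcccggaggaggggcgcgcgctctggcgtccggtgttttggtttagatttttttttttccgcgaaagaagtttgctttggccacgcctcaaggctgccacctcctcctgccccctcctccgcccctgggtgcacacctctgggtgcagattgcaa
Tef, upstream start (chr15:81802423-81802672, plus strand): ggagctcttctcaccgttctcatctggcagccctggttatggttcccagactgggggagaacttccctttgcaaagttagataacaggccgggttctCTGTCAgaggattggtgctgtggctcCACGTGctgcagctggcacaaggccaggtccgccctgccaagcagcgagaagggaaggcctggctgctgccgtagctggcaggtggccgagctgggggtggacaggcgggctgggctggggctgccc
Tef, downstream start (chr15:81811164-81811413, plus strand): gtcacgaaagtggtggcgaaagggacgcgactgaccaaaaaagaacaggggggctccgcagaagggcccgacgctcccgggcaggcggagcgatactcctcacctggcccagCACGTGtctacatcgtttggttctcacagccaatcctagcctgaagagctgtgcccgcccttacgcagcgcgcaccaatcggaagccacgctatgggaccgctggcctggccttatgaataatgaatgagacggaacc
Nfil3 (chr13:52981040-52981289, minus strand): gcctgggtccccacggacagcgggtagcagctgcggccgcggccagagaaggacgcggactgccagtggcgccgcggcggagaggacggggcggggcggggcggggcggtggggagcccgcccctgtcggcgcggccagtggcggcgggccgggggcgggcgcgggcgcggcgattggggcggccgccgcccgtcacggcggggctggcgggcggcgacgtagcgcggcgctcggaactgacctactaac
The *Hlf* window held a cAMP response element that begins 9 bases before the start, a motif found in 1.55% of the 32851 promoter windows of this length. Both *Tef* windows held an E-box, at 127 and 138 bases before the start, and the window of the upstream start also held a Meis site on the reverse strand at 153 bases. E-boxes were present in 6.02% of all windows and Meis sites in 15.9%. No motif was found in the *Dbp* or *Nfil3* window, and no member's window held a D-box, which all windows held in 0.819% (TTATGTAA) and 0.113% (TTACGTAA). The members' windows were rich in G and C, from 60.4% in the downstream *Tef* window to 81.6% for *Nfil3*, against a median of 52.4%. A match is a description of the letters, and nothing was measured here on binding.

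Values are log2 processed signals minus the array's 75th percentile, so that 0 is that percentile, and a difference is Meis1-KO minus Meis1-WT. The arrays had 49.2% to 57.4% of spots well above background and no saturated spot. The second Meis1-KO array was the dimmest, with a 75th percentile of 90.3 against 147 to 154 on the other arrays. The level of one probe cannot be set against that of another. Nothing shows which mice made up each pool, so the tests measure the spread between these pools and arrays, and an exact permutation test of 2 against 2 arrays could not give a two-sided p below 0.333.

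*Meis1*, the deleted gene, was lower on both slides at its 2 probes. At A_52_P670612 the log2 values were 0.25 and 0.22 in Meis1-KO and 1.02 and 1.45 in Meis1-WT cells. The groups did not overlap, and the difference was -1.0 ± 0.44 (SE, n = 2 arrays per genotype, adjusted p = 0.983 by limma, a linear model that shares the estimate of spread across probes). At A_52_P26195 the values were -2.46 and -3.54 against -1.55 and -1.06, a difference of -1.70 ± 0.54 (SE, n = 2, adjusted p = 0.983 by limma), with 1 of the Meis1-KO arrays not well above background. This difference was -0.27 after normexp, a background correction that models signal and background together. With the slide in the fit it was called (unadjusted p = 0.0098 and adjusted p = 0.498 by limma). It entered the test only through the Meis1-WT arrays, where it was brighter, so neither its size nor its call is exact. The position of the probes relative to the deleted exon 8 was not analysed here.

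The single *Hlf* probe was lower in Meis1-deficient LSK cells on both slides. Probe A_51_P134228 (chromosome 11, 90199978 to 90200037, mm9, minus strand) was well above background on all 4 arrays. Its log2 values were 2.73 and 2.01 in the Meis1-KO pools and 5.29 and 4.29 in the Meis1-WT pools. Each Meis1-WT array was thus brighter than each Meis1-KO array. The means were 2.37 ± 0.52 (SD, n = 2) and 4.79 ± 0.71 (SD, n = 2), and the difference was -2.42 ± 0.55 (SE), a ratio of 5.35. Within slide 1 the ratio of Meis1-WT over Meis1-KO was 5.89, and within slide 2 it was 4.87. The processed signals before scaling were 987 and 363 in Meis1-KO and 5746 and 3011 in Meis1-WT cells. Their ratios were 5.82 on slide 1 and 8.31 on slide 2, where the dimmer array was the Meis1-KO one.

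The *Hlf* signal thus stayed well above background on both Meis1-KO arrays. Its difference was number 130 of 22007 tested probes, counted from the lowest. With each array left out in turn it ranged from -2.92 to -1.92, and under the other scalings and background corrections it lay between -2.60 and -2.33. The study called a gene differentially expressed when its unadjusted p was under 0.01 and its change over 2-fold. By these criteria, no tested probe of *Dbp*, *Tef* or *Nfil3* was called, against 0.6% of all tested probes called lower and 0.136% called higher. The *Hlf* probe is left out of this count, because its values selected the gene. At every tested probe of *Dbp*, *Tef* and *Nfil3* the groups overlapped, while 10.9% of all tested probes lay lower in Meis1-KO without overlap and 16% lay higher. So few probes cannot be told from these shares. Lower signal in these pools can come from fewer cells that express a gene or from less RNA per cell, which cannot be told apart in bulk samples.

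**Figure D1:**
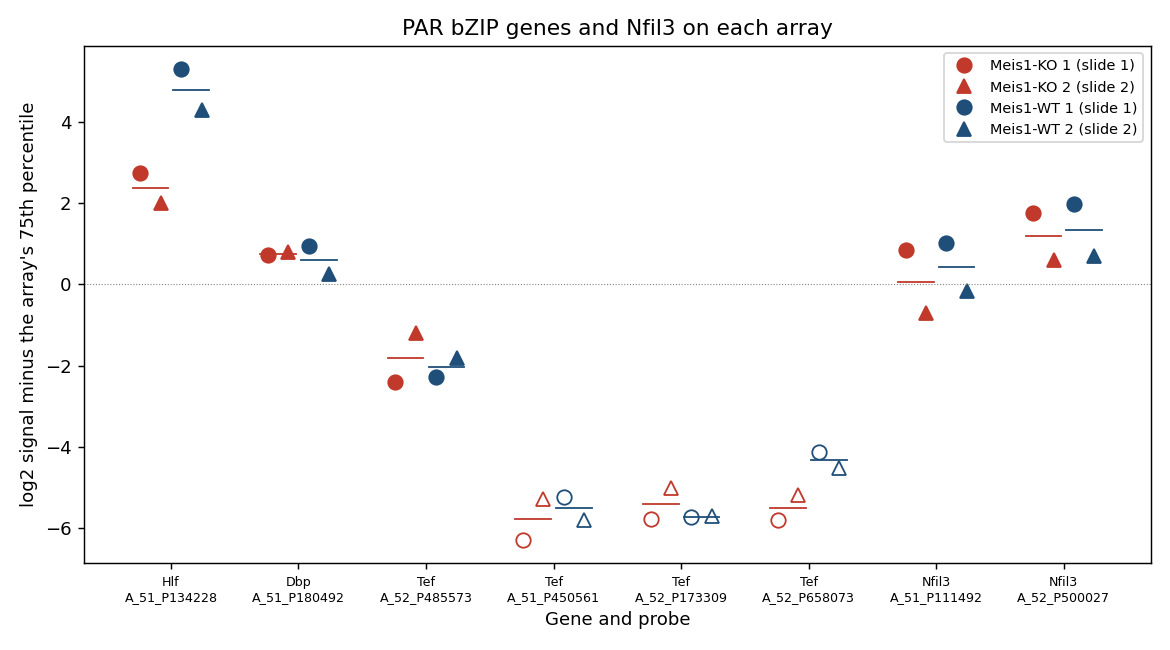
Log2 signal minus the 75th percentile of the array (y axis) for the 8 probes of *Hlf*, *Dbp*, *Tef* and *Nfil3* (x axis) on 2 Meis1-KO (red) and 2 Meis1-WT (blue) arrays, with circles for slide 1, triangles for slide 2, open symbols for spots not well above background and short lines for the group means. The *Hlf* values lie between 2.01 and 2.73 in Meis1-KO and between 4.29 and 5.29 in Meis1-WT, while the values of the other tested probes overlap, and heights cannot be compared between probes.

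The paralog *Dbp*, a strongly rhythmic clock output in many tissues, did not pass the test. Probe A_51_P180492 (chromosome 7, 52965265 to 52965324, mm9, plus strand) gave log2 values of 0.73 and 0.79 in Meis1-KO and 0.94 and 0.25 in Meis1-WT cells. Both Meis1-KO values lay between the Meis1-WT values. The means were 0.76 ± 0.043 (SD, n = 2) and 0.60 ± 0.48 (SD, n = 2). The difference was 0.16, with a 95% interval of -0.96 to 1.28 (adjusted p = 0.987 by limma). It was -0.21 on slide 1 and 0.53 on slide 2, so that the sign depended on the slide.

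*Tef*, named for the thyrotroph cells of the pituitary, gave a usable signal at 1 of 4 probes. Probe A_52_P485573 (chromosome 15, 81656928 to 81656987, mm9, plus strand) had log2 values of -2.41 and -1.19 in Meis1-KO and -2.28 and -1.80 in Meis1-WT cells. The groups overlapped. The means were -1.80 ± 0.87 (SD, n = 2) and -2.04 ± 0.34 (SD, n = 2), and the difference of 0.24 had a 95% interval of -1.12 to 1.60 (adjusted p = 0.983 by limma). Slide 1 gave -0.13 and slide 2 gave 0.61. The other 3 probes, A_51_P450561, A_52_P173309 and A_52_P658073, were not well above background on any array, with processed signals of 1.91 to 8.43, and no ratio is given for them.

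*Nfil3*, the competing repressor, was measured by 2 probes, and neither passed the test. Probe A_52_P500027 (chromosome 13, 53062585 to 53062644, mm9, minus strand) gave log2 values of 1.76 and 0.60 in Meis1-KO and 1.98 and 0.69 in Meis1-WT cells. Probe A_51_P111492 (53062869 to 53062928) gave 0.85 and -0.71 against 1.03 and -0.15. At both probes the replicates of a genotype lay farther apart than the genotype means. The differences were -0.16 (95% interval -1.72 to 1.41, adjusted p = 0.988 by limma) and -0.37 (95% interval -2.06 to 1.33, adjusted p = 0.983 by limma). On slide 1 they were -0.22 and -0.17, and on slide 2 they were -0.091 and -0.56.

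These intervals are wide. For *Dbp* and *Tef*, and for *Nfil3* at both probes, they include a 2-fold change in either direction except for the lower side at *Dbp*, so the missing calls do not show that these genes were equal between genotypes. Whether the difference of *Hlf* exceeded those of the other members was not tested, since *Hlf* was selected for its difference.

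**Figure D2:**
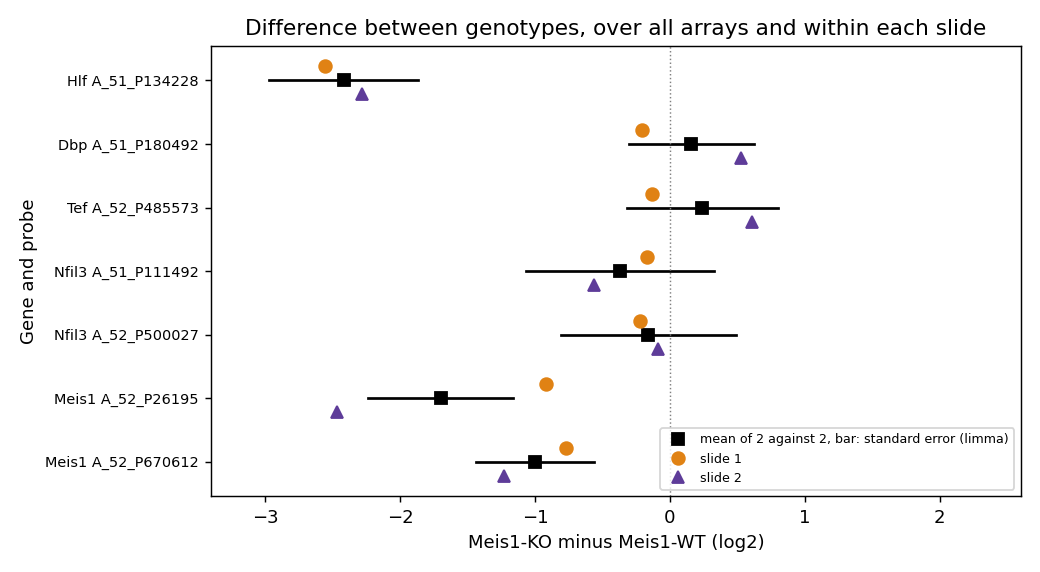
Difference Meis1-KO minus Meis1-WT on the log2 scale (x axis) for the tested probes of the 4 members and of *Meis1* (y axis), with squares for the difference of the means, bars of 1 standard error from limma, circles for slide 1 and triangles for slide 2. *Hlf* lies at -2.56 and -2.28 on the slides, whereas the slide values of *Dbp* and *Tef* lie on both sides of 0 and those of *Nfil3* between -0.56 and -0.091.

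The members also differed between slides. From slide 1 to slide 2, *Nfil3* was lower in both genotypes, by -1.15 in Meis1-KO and -1.29 in Meis1-WT at A_52_P500027 and by -1.56 and -1.18 at A_51_P111492. *Hlf* was lower on slide 2 in both genotypes as well, by -0.73 and -1.0. *Tef* was higher on slide 2, by 1.22 and 0.48, while *Dbp* changed by 0.061 in Meis1-KO and -0.68 in Meis1-WT. The mean slide gap was -1.22 and -1.37 for *Nfil3*, -0.87 for *Hlf*, 0.85 for *Tef* and -0.31 for *Dbp*, and the median size over all tested probes was 0.46. A slide holds 1 pool of each genotype, so pool and slide cannot be told apart.

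Some markers of mature cells also differed between the slides. *S100a9*, a granulocyte gene, had log2 values of 5.0 and 1.85 in Meis1-KO and 6.06 and 1.31 in Meis1-WT cells. *Hba-a1*, an erythroid globin, had 1.83 and -2.05 against 2.57 and -2.24. Both were higher on slide 1 in both genotypes, as *Nfil3* and *Hlf* were. Over the whole lists, 4 of 7 tested granulocyte and monocyte markers were higher on slide 1 in both genotypes and 2 on slide 2, and of 3 tested erythroid markers 1 was higher on slide 1 and 1 on slide 2. Their part in the members' slide gaps was not tested. Between the genotypes, the summed scaled signal (processed signal divided by the 75th percentile of the array, added over the genes) of the 7 tested granulocyte and monocyte markers was 182 and 140 in Meis1-KO against 194 and 75.4 in Meis1-WT, and that of the 3 tested erythroid markers was 4.16 and 1.20 against 6.66 and 1.07.

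Of 10 genes listed for hematopoietic stem cells, all were tested and 0 were called by limma, with or without the slide as a block, and 0 had an unadjusted p under 0.05. With 0.6% of all tested probes called lower and 0.136% higher, a count of 0 among 10 is near the background. Their median difference was 0.045, against 0.082 over all tested probes, with 5 genes lower and 5 higher. This median turned sign between the slides, from 0.39 on slide 1 to -0.32 on slide 2. *Procr*, which encodes the stem cell receptor EPCR, had log2 values of 3.74 and 4.11 in Meis1-KO and 4.48 and 4.04 in Meis1-WT cells. These values overlapped. The lowest difference of the list was at *Fgd5* (-1.13 ± 1.00, SE, n = 2), where the second Meis1-KO array stood apart at -1.63 against 0.89 to 1.55 on the other arrays. The summed scaled signal of the list was 65.8 and 48.3 in Meis1-KO and 63.0 and 52.5 in Meis1-WT. For the surface proteins of the gate and for CD34, which divides LSK cells but is no part of that gate, 0 of 3 genes were called. The difference was -0.21 ± 0.42 (SE) for *Kit*, 0.035 ± 0.46 for *Ly6a*, which encodes Sca-1, and 0.24 ± 0.47 for *Cd34*.

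Of 6 markers of lymphoid priming, 5 were tested and 1 was called lower, where 0.6% of all tested probes were called lower. The 4 others did not pass the test. All 5 had negative differences on both slides, with a median of -1.20, and their part in the value of *Hlf* was not tested. Of them, *Flt3*, *Il7r* and *Ccr9* entered the test only through the Meis1-WT arrays, being well above background on 1 Meis1-KO array, and this filter favors negative differences. The called gene was *Flt3*, a cytokine receptor of early progenitors, with -2.32 and -4.72 in Meis1-KO and -0.19 on both Meis1-WT arrays. Its dimmest value was not well above background, so its call rests in part on a value at the floor. The summed scaled signal of the list was 43.2 and 24.7 in Meis1-KO and 96.8 and 58.3 in Meis1-WT. Of the granulocyte and monocyte markers, *Elane*, a neutrophil protease, was the 1 of 7 tested that was called lower, with -2.56 and -2.30 against -0.87 and -0.84. The tested markers of B cells (3 of 7), plasma cells (4 of 5), T cells (1 of 5), NK and innate lymphoid cells (4 of 6), erythroid cells (3 of 5) and megakaryocytes (4 of 4) gave 0 calls in either direction. Their median differences were -0.22, -1.30, -1.34, 0.18, -0.28 and -1.03, and 1 T cell gene and 1 megakaryocyte gene had an unadjusted p under 0.05. The medians of the B, plasma and erythroid markers turned sign between the slides, from -0.62, -3.0 and -0.74 on slide 1 to 0.18, 0.94 and 0.19 on slide 2. Of the T cell markers, *Cd3e* and *Cd3g* were not well above background on any array, while *Cd3d* was on 2 arrays, both on slide 2, and *Cd8a* on 3.

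The clock genes drive the PAR bZIP genes in liver and are in part their targets. Of 19 genes, 16 were tested at their brightest probe, and 0 were called by limma, against 0.6% of all tested probes lower and 0.136% higher, while 1 (*Per3*) had an unadjusted p under 0.05. With the slide as a block, which takes out the shift between slides, 1 gene was called lower, *Per1*, beside 1.4% of all tested probes called lower and 0.591% called higher in that fit. A second probe of *Rora*, A_52_P652442, was also called lower with the block. The median difference was -0.31, with 12 genes lower and 4 higher, while the median of all tested probes was 0.082 and 43.7% of them were lower. It was -0.37 on slide 1 and 0.23 on slide 2. At the brightest probe, groups that did not overlap were seen for 3 genes lower in Meis1-KO (*Per2*, *Per3* and *Nr1d1*) and 1 higher (*Cry1*). Over all tested probes these shares were 10.9% and 16%. The groups overlapped at the other tested probes of *Per2* and *Nr1d1*, and the other tested *Cry1* probe lay lower without overlap.

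The activators *Clock* and *Arntl*, which form the dimer that binds E-boxes, had differences of -0.13 ± 0.56 (SE, n = 2) and -0.14 ± 0.46. At the brightest probe of each gene, the lowest differences lay at *Per1* and *Per3*, of the period genes, which encode repressors of that dimer. *Per1* had log2 values of 1.09 and -2.90 in Meis1-KO and 1.80 and 0.88 in Meis1-WT cells. The second Meis1-KO array thus stood far below the other arrays, and the difference of -2.24 ± 1.24 (SE, n = 2, adjusted p = 0.983 by limma) was -0.71 on slide 1 and -3.78 on slide 2. *Per3* had -2.72 and -3.53 against -1.67 and -1.83, with the lowest value not well above background, and a difference of -1.38 ± 0.48 (SE, n = 2, adjusted p = 0.983 by limma). It entered the test only through the Meis1-WT arrays, which bears on its p and on its place among the genes without overlap. *Per2* had -0.69 and -1.74 against -0.65 and 0.13, a difference of -0.96 at this probe and -0.22 at the other tested one. *Per1* and *Per3* both met the criteria in the fit without the first Meis1-KO array, where the dimmest array is the only one of its genotype.

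The cryptochromes pointed both ways, with -0.48 ± 0.71 (SE, n = 2) at *Cry2* and 0.39 ± 0.43 at the brightest *Cry1* probe, while the other tested *Cry1* probe gave -0.60. *Ciart*, a repressor of the same dimer, gave -0.50 ± 0.56, and *Bhlhe40*, which competes at E-boxes, -0.10 ± 0.84. *Ciart* and the other tested *Cry1* probe entered the test only through the Meis1-WT arrays. The nuclear receptors include *Rora*, an activator of *Arntl* and of *Nfil3*, and *Nr1d1*, which represses both. *Rora* had log2 values of 0.30 and -1.28 in Meis1-KO and 1.87 and -0.24 in Meis1-WT cells, lower on both slides and lower on slide 2 in both genotypes. Its differences were -1.30 ± 0.86 (SE, n = 2) and -1.50 ± 0.94 at 2 probes, and the second was called once the slide entered the fit (unadjusted p = 0.00999 and adjusted p = 0.501 by limma). *Nr1d1* had -1.89 and -2.97 against -1.43 and -1.81 at its brightest probe, a difference of -0.81 ± 0.53. Its other tested probes gave -0.99 ± 0.79 and -0.36 ± 0.69, with overlap of the groups and higher values in Meis1-KO on slide 1. Both entered the test only through the Meis1-WT arrays. *Nr1d2* differed by -0.0021 ± 0.43. The kinases *Csnk1d* and *Csnk1e*, which act on the period proteins, had differences of 0.15 and 0.033. *Npas2*, *Arntl2* and *Bhlhe41* were not tested.

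Of the 16 tested clock genes, 8 were higher on slide 1 in both genotypes and 0 were higher on slide 2 in both. Over all tested probes these shares were 26.3% and 35.1%. Of the 14 clock genes with a promoter window, 1 had a D-box, *Per3*, with 2 copies of TTATGTAA at 205 and 158 bases before the start. An E-box was present in 4 of them (*Per1*, *Cry1*, *Ciart* and *Bhlhe41*) and a Meis site in 2 (*Clock* and *Arntl2*). The 14 genes had 21 windows. Over all promoter windows, 0.819% held TTATGTAA, 6.02% an E-box and 15.9% a Meis site.

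**Figure D3:**
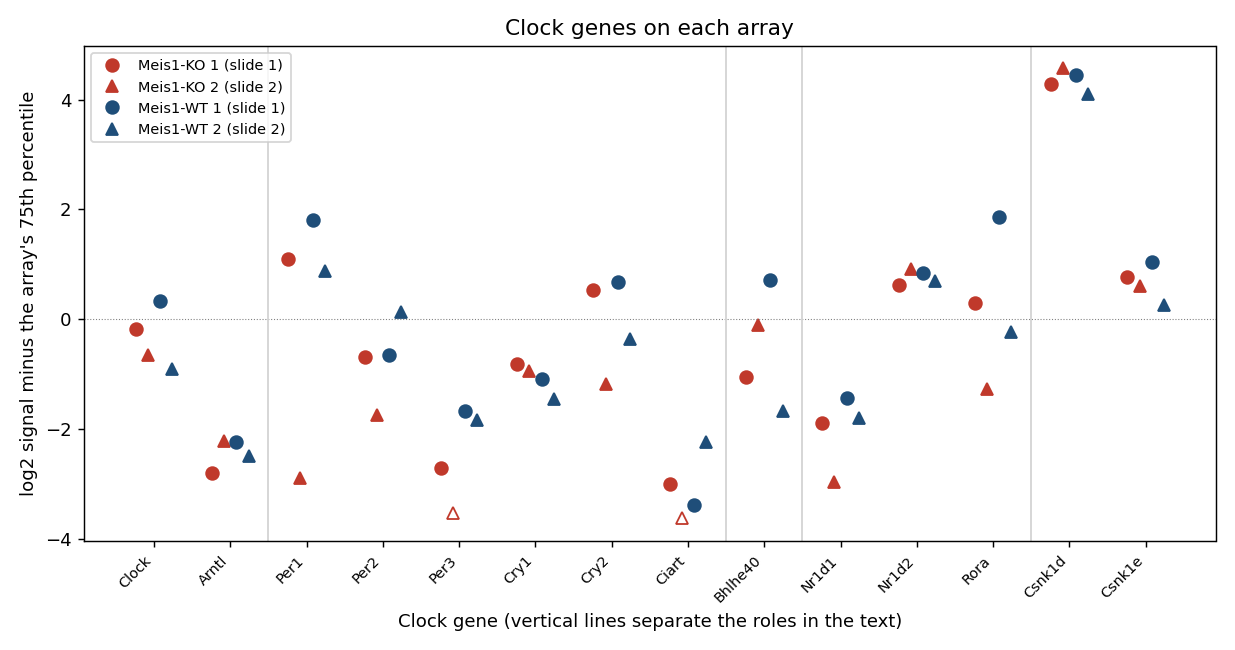
Log2 signal minus the 75th percentile of the array (y axis) for 14 of the 16 tested clock genes at their brightest probe (x axis, in groups of activators, period and cryptochrome repressors, *Bhlhe40*, nuclear receptors, and kinases). Red marks Meis1-KO and blue Meis1-WT arrays, circles slide 1 and triangles slide 2, and open symbols spots not well above background. The second Meis1-KO array lies at -2.90 for *Per1*, far below the 0.88 to 1.80 of the other arrays.

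Known target genes of the PAR bZIP factors were mostly dim in LSK cells. Of 13 genes, known largely from liver, 3 were tested and 0 were called, and the 3 had 0 unadjusted p-values under 0.05. So few genes could not be told from the background of 0.6% lower and 0.136% higher. *Pdxk*, the kinase that makes pyridoxal phosphate, had log2 values of 2.66 and 3.44 in Meis1-KO and 2.44 and 3.0 in Meis1-WT cells, a difference of 0.33 ± 0.50 (SE, n = 2, adjusted p = 0.983 by limma). *Por*, the electron donor of the cytochromes P450, gave -0.39 ± 0.42 without overlap of the groups, and *Alas1*, the first enzyme of heme synthesis, gave 0.39 ± 0.48 with overlap. Over all tested probes, 10.9% lay lower in Meis1-KO without overlap. The 10 other genes, among them *Alb*, *Cyp7a1* and *Nr1i3*, were not tested.

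Of 5 genes reported as targets of the TCF3-HLF fusion protein, *Lmo2* and *Bcl2* were tested. Neither was called or had an unadjusted p under 0.05, against a background of 0.6% called lower and 0.136% higher. *Lmo2*, a transcriptional adaptor of stem cells, had log2 values of 3.29 on both Meis1-KO arrays and 3.51 and 3.43 on the Meis1-WT arrays, a difference of -0.18 ± 0.42 (SE, n = 2, adjusted p = 0.983 by limma). Its groups did not overlap, which held on the lower side for 10.9% of all tested probes. *Bcl2*, which protects cells from apoptosis, had 3.93 and 4.08 against 3.87 and 4.12 at its brightest probe, a difference of 0.014 ± 0.43 (SE, n = 2, adjusted p = 0.998 by limma). Its other tested probes gave 0.42 ± 0.63 and -0.24 ± 0.51.

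The C/EBP proteins are related bZIP factors that can bind D-box-like sites. Of 6 genes, 5 were tested and 0 were called or had an unadjusted p under 0.05, with a median difference of 0.14, against the same background of 0.6% lower and 0.136% higher. *Cebpa*, needed for granulocyte development, had log2 values of 1.48 and 1.80 in Meis1-KO and 1.53 and 1.13 in Meis1-WT cells, and *Cebpb*, a factor of inflammatory and myeloid gene expression, had 3.17 and 2.61 against 3.51 and 2.35. *Ddit3*, a stress-induced member, had -2.41 and -4.31 against -1.21 and -2.19. Its difference of -1.66 ± 0.74 (SE, n = 2, adjusted p = 0.983 by limma) was called when the slide entered the fit, where 1.4% of all tested probes were called lower, and its lowest value was not well above background. *Ddit3* too entered the test only through the Meis1-WT arrays.

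The profile of *Hlf* over the 4 arrays was compared with that of 16929 probes of 11062 named genes that were well above background on all arrays. The measure was the Euclidean distance between values centered on each probe's mean, for which the median over all probes was 2.78. The 5 nearest genes were *Cyp26b1*, an enzyme that degrades retinoic acid (distance 0.488), *Pcp4l1* (0.667), *Nupr1*, a stress-induced nuclear protein (0.746), *Gm11428*, now named *Wfdc17* (0.762), and *Tmprss3*, a membrane serine protease (0.764). Being chosen for their likeness, they are given without a test. *Cyp26b1* had log2 values of -1.71 and -2.26 in Meis1-KO and 0.69 and 0.34 in Meis1-WT cells. *Pcp4l1* had 1.75 and 0.67 against 3.99 and 3.78. *Nupr1* had -0.52 and -1.20 against 1.60 and 1.65.

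All 5 shared lower values in Meis1-KO, with differences from -2.68 to -2.21. *Gm11428* also shared the step of *Hlf* between the Meis1-WT arrays, with 2.08 on slide 1 and 0.064 on slide 2. *Nfil3* lay at distances of 2.14 and 2.29 from *Hlf*, *Dbp* at 2.65 and *Tef* at 3.17. The *Meis1* probe that was well above background on all arrays lay at 1.82.

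**Figure D4:**
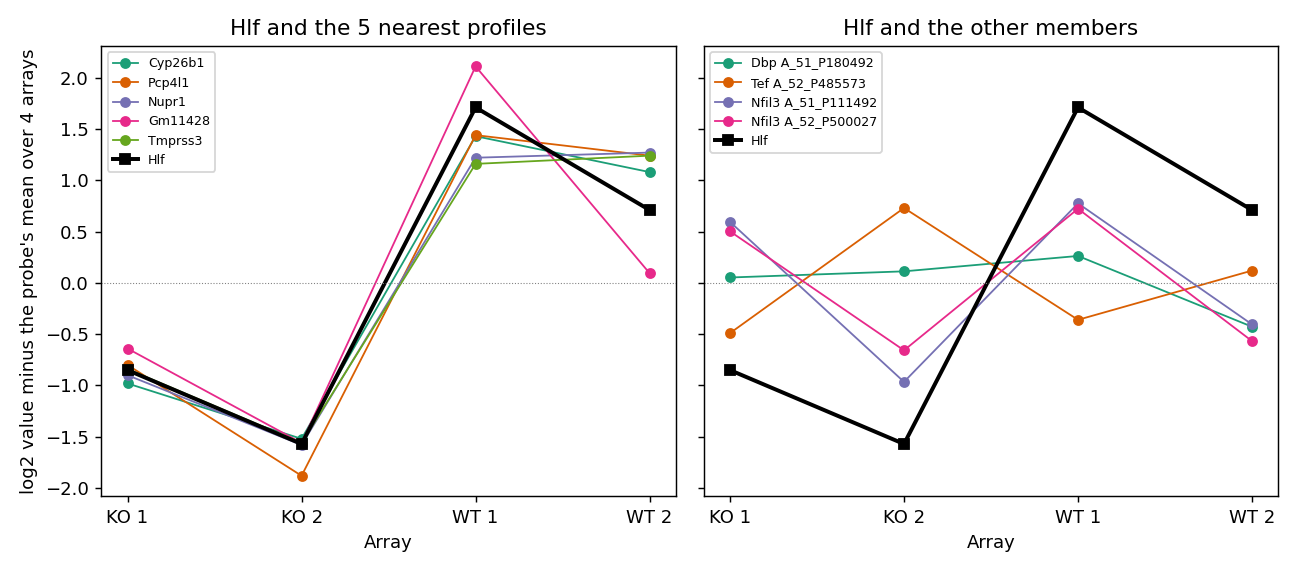
Log2 value minus the probe's mean over the 4 arrays (y axis) for each array (x axis, Meis1-KO 1 and 2, then Meis1-WT 1 and 2), with *Hlf* in black beside its 5 nearest profiles (left) and beside the tested *Dbp*, *Tef* and *Nfil3* probes (right). *Hlf* runs from -0.85 and -1.57 in Meis1-KO to 1.71 and 0.71 in Meis1-WT.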

How the data were processed

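RNA of LSK cells was hybridized to 4 single-color arrays of 60-base probes, 2 per genotype, after amplification of 10 ng and labeling with Cy3. The authors deposited spot intensities, background-subtracted and detrended within each array by Feature Extraction (9.5.3.1 in the file headers, 9.1 in the submitters' processing notes), with no scaling between arrays. Samples were grouped by the genotype in their titles. Gene symbols are those of the array, and positions are on mm9. Of 19897 RefSeq accessions, 18754 matched the GRCm38.p6 gene table, used for names and promoter windows only.

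Spots for controls and those marked as outliers were dropped, the spots of 1 probe were averaged, and the log2 scale was set to 0 at the 75th percentile of each array. The genotypes were compared in limma (version 3.58.1, R 4.3.3) by lmFit and eBayes over 22007 tested probes, with Benjamini-Hochberg adjustment. Motifs, profiles and counts used Python 3.11.15. No probe had an adjusted p under 0.05 by limma (0 of 22007, with 618 at an unadjusted p under 0.05), and 50 had one with the slide as a block. A gene of a list is represented by its brightest tested probe. A scaled signal is the processed signal divided by the array's 75th percentile. Signal over background and the number of arrays limit the precision.

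The members and the 14 gene lists were chosen with earlier results of these data known. The named genes are the 4 members and *Meis1* at every probe, the tested genes of the lists of clock genes, PAR bZIP targets, TCF3-HLF targets and C/EBP genes (values for called ones and the brightest of each role), and the 5 genes nearest to *Hlf*. Other genes named from these lists and the marker lists were chosen after their values were seen. Replicate numbers mark the slide in both genotypes, as the file headers record. The deviations of same-numbered arrays correlated at 0.266 across probes, over 2 pairs.

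Other settings tried were scaling to the median or by quantiles, normexp background correction (offset 50), the authors' series table, a weaker and a stricter filter (none, or well above background on all 4 arrays), keeping outlier spots, the slide as a block, a t-test after the methods of the study, limma with an intensity trend, and leaving out single arrays. For the last, the spread of a lone array was taken from the genotype with 2. The fit was first tested on simulated data. Exon annotation, protein sequences and quantitative PCR were not analysed here. Some single genes of the lists enter the counts and are not reported here.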

Additional observations from a re-analysis of the deposited data

How the results depend on the processing

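*Hlf* lay between -2.60 and -2.33 under the other scalings and background corrections and between -2.92 and -1.92 with each array left out. The slide as a replicate block (-2.42), the filters and the intensity trend cannot move a difference of means in this balanced layout. The sign of the others depended on single arrays. *Dbp* turned to -0.18 without the second Meis1-WT array (range -0.18 to 0.50). *Tef* turned to -0.37 without the second Meis1-KO array and to -0.0029 without the first Meis1-WT array (range -0.37 to 0.85). *Nfil3* (A_52_P500027) turned to 0.42 and 0.49 without the same arrays (range -0.80 to 0.49). No probe of these 3 genes was called in any alternative that fitted it.

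With the replicate block, *Dbp*, *Tef* and *Nfil3* likewise had differences of 0.16, 0.24 and -0.16. The block gave no call among these genes. At the brightest probes the block called 1 clock gene, *Per1*, against 0 without it, and it also called a second probe of *Rora*. At the brightest probes, 2 were called without the first Meis1-KO array (range 0 to 2 over the arrays left out). PAR bZIP targets gave 0 calls under all 14 alternatives.

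Of all probes, 132 were called lower and 30 higher. These counts were 307 and 130 with the replicate block, 47 and 2 with normexp, 43 and 10 with the filter on all 4 arrays, 23 and 7 with the methods' t-test, and 85 and 16 with the intensity trend, and 100 were higher without the filter on dim probes. With each array left out they ranged from 57 to 1705 lower and from 34 to 510 higher, the highest without the first Meis1-KO array, which leaves the dimmest array alone in its genotype. The causes were not tested.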
